A study of Mus musculus with 16 samples.

Results

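The 10 genes described here encode proteins of necroptosis and of the death-inducing complexes that form at TNF-family receptors: Ripk3, Mlkl, Zbp1, Fadd, Cflar, Tradd, Fas, Cyld, Xiap and Gsdmd. They were picked by name from 18820 genes on a one-colour Affymetrix array, taking probe sets annotated with exactly 1 gene symbol and, where a gene has several, the one whose mean over the 16 arrays is highest. All 10 were found, on 12 probe sets, of which 3 are for Cflar. RNA came from whole livers of 16 males, 7 days old, on a mixed C57/BL6 and SV129Ola background, with 1 array per animal and 4 animals in each of 4 genotypes. The WT animals were littermates that carry the floxed alleles without Cre. In the mice labelled TRAF2/Casp-8LPC-KO (here TRAF2/Casp8 KO), floxed Traf2 and Casp8 were deleted through alfp-Cre, which acts in liver parenchymal cells. In those labelled TRAF2/Casp-8LPC-KO/RIPK3-/- (RIPK3 triple KO), Ripk3 was in addition deleted constitutively, in every cell of the body. In those labelled TRAF2/Casp-8/IKKbetaLPC-KO (IKKβ triple KO), a floxed allele of the kinase IKKβ was in addition deleted in parenchymal cells only. All 3 knockout genotypes thus share the parenchymal deletion of Traf2 and Casp8, and their non-parenchymal cells keep both genes.

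Necroptosis is a lytic form of cell death that runs when caspase-8 is absent or blocked. The kinase RIPK3 is activated through contacts with RIPK1, TRIF or the nucleic acid sensor ZBP1, and phosphorylates MLKL, which then permeabilises the plasma membrane. The adaptors TRADD and FADD connect TNF receptor 1 and Fas to caspase-8, and c-FLIP, the product of Cflar, pairs with caspase-8 and tunes both apoptosis and necroptosis. CYLD removes the ubiquitin chains that hold RIPK1 in the receptor complex, XIAP inhibits caspases, and gasdermin D forms the pores of pyroptosis. In normal liver, hepatocytes are known for low RIPK3, while macrophages and other immune cells express it.

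The values are log2 signals that the authors normalised with RMA. Group means were compared with limma in 1 model of the 4 genotypes, and a gene passed at a p-value of 0.05 after Benjamini-Hochberg correction for all 35556 probe sets. As a check of the tissue, the mean of 8 hepatocyte markers lay between 12.001 and 12.369 in every array. Of the knockout targets, Casp8 lay between 8.50 and 9.11 in the 12 arrays labelled as deleted and between 9.76 and 10.07 in WT. Ikbkb, the gene of IKKβ, lay between 7.07 and 7.30 in the arrays labelled IKKβ triple KO and between 7.50 and 8.06 in the 12 others. Traf2 went against the labels: it lay between 6.21 and 6.40 in WT and between 6.87 and 7.53 in the 12 arrays labelled as Traf2-deleted. Whether its probe set lies in the deleted part of the gene is not given in the sources used here. Every genotype name below is therefore the name on the label. Array names place WT and IKKβ triple KO arrays in plate column 5 and the others in column 7, and rows A to D hold WT and RIPK3 triple KO, rows E to H the rest, so plate position and genotype cannot be told apart. The array name of TRAF2/Casp8 KO replicate 4 has another prefix than the 15 others, and the labels do not say what it marks. WT replicate 1 stood apart on the second principal component, at −50.5 against −22.3 to 27.0 for the 15 others. It was the highest of the 4 WT arrays for 7 of the 10 genes, where 31.0% of all genes had their highest WT value in it.

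Ripk3 was the one gene of the 10 that passed the threshold, and it did so in the 3 comparisons that involve the arrays labelled RIPK3 triple KO. The labels give Ripk3 as deleted in those arrays, and 0 of the 54 tests of the other genes passed. In the arrays labelled TRAF2/Casp8 KO against WT, 0 of 10 genes passed by limma, where 3.31% of all genes did, and 4 of 10 had an unadjusted p under 0.05, where 16.4% of all genes did. Between RIPK3 triple KO and TRAF2/Casp8 KO, 1 of 10 passed against a background of 0.329%. Between IKKβ triple KO and TRAF2/Casp8 KO, limma called 0 of 10 against 1.02% of all genes, with 1 of 10 at an unadjusted p under 0.05 against 10.7%. RIPK3 triple KO against WT gave 1 of 10 (background 3.11%). IKKβ triple KO against WT gave 0 of 10 by limma (background 0.0372%), and 1 of 10 had an unadjusted p under 0.05 (background 6.45%). IKKβ triple KO against RIPK3 triple KO gave 1 of 10 (background 2.00%). The plot of differences with their intervals shows all 60 tests.

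**Figure D1:**
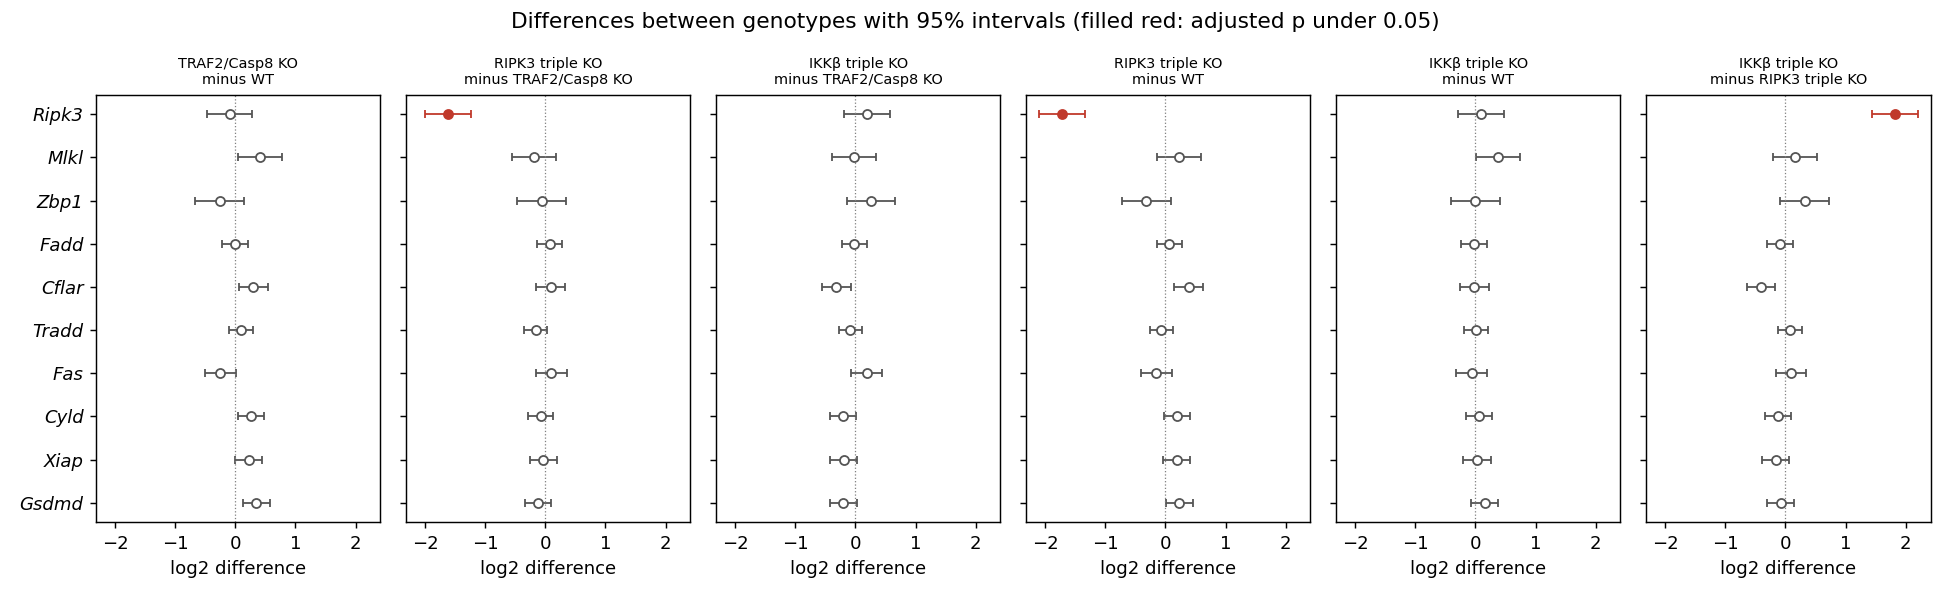
Log2 differences between genotypes for the 10 genes (rows) in 6 comparisons (panels), with 95% confidence intervals from limma; filled red points passed an adjusted p of 0.05. Ripk3 lies at −1.62, −1.72 and 1.82 in the panels that involve RIPK3 triple KO, and the 54 other points among the 9 remaining genes lie between −0.40 and 0.41.

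Ripk3 encodes the kinase at the centre of the necrosome and is itself deleted in 1 genotype. Its signal was 6.40, 5.65, 5.71 and 5.97 in WT replicates 1 to 4 and 5.86, 5.66, 5.62 and 6.20 in the arrays labelled TRAF2/Casp8 KO. It was 5.80, 6.42, 6.04 and 5.86 in those labelled IKKβ triple KO, and 4.23, 4.40, 4.16 and 4.07 in those labelled RIPK3 triple KO. Every RIPK3 triple KO array was thus below every other array, and the 3 other genotypes overlapped. The RIPK3 triple KO mean of 4.21 ± 0.14 (SD, n = 4) was 3.08-fold below that of TRAF2/Casp8 KO, 5.84 ± 0.27 (log2 −1.62, SE 0.18, limma adjusted p = 0.000462). It was 3.29-fold below WT (log2 −1.72, SE 0.18, limma adjusted p = 7.27e-05), and IKKβ triple KO was 3.52-fold above it (log2 1.82, SE 0.18, limma adjusted p = 7.49e-05). The values carry no detection call, so whether the signal left in RIPK3 triple KO lies above background is not known, and the folds are those of the signals as measured. Leaving out any 1 of the 8 arrays in each of these comparisons kept the call, with adjusted p up to 0.0036.

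Among the 3 genotypes that keep Ripk3, its level did not differ beyond the spread between animals. The means were 6.03 ± 0.28 in IKKβ triple KO, 5.93 ± 0.34 in WT and 5.84 ± 0.27 in TRAF2/Casp8 KO (SD, n = 4 each). TRAF2/Casp8 KO minus WT was −0.10 with a 95% interval of −0.48 to 0.28 (limma adjusted p = 0.873), and IKKβ triple KO minus TRAF2/Casp8 KO was 0.19 with an interval of −0.19 to 0.57 (limma adjusted p = 0.845). In whole-liver RNA, fewer cells of a type and less RNA per cell cannot be told apart.

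Marker lists of other cell types were read beside the Ripk3 differences. The mean log2 signal of 10 neutrophil and myeloid precursor markers lay between 6.50 and 8.47 in RIPK3 triple KO arrays, 7.93 and 9.22 in TRAF2/Casp8 KO, 8.30 and 9.82 in WT, and 8.18 and 9.24 in IKKβ triple KO. The median difference of these markers was −0.99 between RIPK3 triple KO and TRAF2/Casp8 KO, with 0 of 10 passing and overlapping groups, and −1.43 between RIPK3 triple KO and WT, with 1 of 10 passing as lower. Against TRAF2/Casp8 KO, the 4 monocyte markers had a median of −0.73 with 1 passing as lower, and the 8 Kupffer cell and macrophage markers had a median of −0.0082 with 0 passing. The 6 erythroid markers had medians of −0.60 against TRAF2/Casp8 KO and −1.01 against WT, with 0 passing. In both comparisons 1 of 8 T and NK cell markers passed as lower. Over all genes, 0.329% passed against TRAF2/Casp8 KO and 3.11% against WT. In WT, replicate 1 had both the highest Ripk3 signal, 6.40, and the highest neutrophil marker mean, 9.82 against 8.30 to 8.65. Replicate 2 had the next highest marker mean, 8.65, and the lowest WT Ripk3 signal, 5.65. Replicate 4 of TRAF2/Casp8 KO was the highest of its genotype in both, at 6.20 for Ripk3 and 9.22 for the markers. Replicate 4 of RIPK3 triple KO had its genotype's highest marker mean, 8.47, and lowest Ripk3 signal, 4.07. Among IKKβ triple KO arrays, replicate 4 had the highest marker mean, 9.24, and replicate 2 the highest Ripk3 signal, 6.42. The part of these cells in the Ripk3 differences was not tested.

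**Figure D2:**
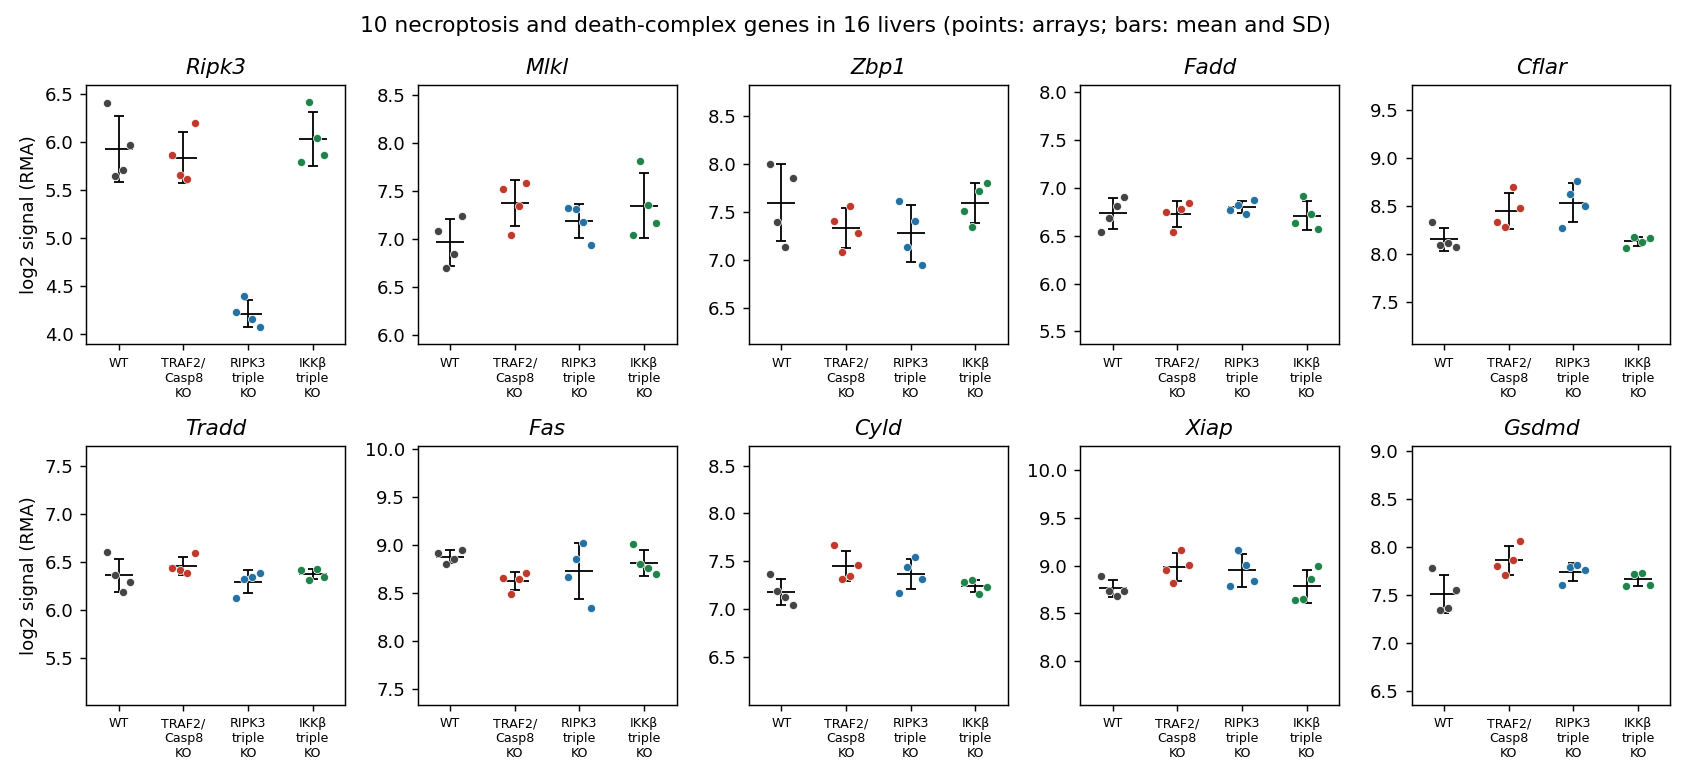
Log2 signal of each of the 10 genes by genotype, with 1 point per array, a horizontal bar at the mean and whiskers of 1 SD (n = 4 per genotype). Panels differ in the position of the y axis but all span the same 2.7 log2 units. The RIPK3 triple KO points of Ripk3 lie from 4.07 to 4.40 and all its other points from 5.62 to 6.42, and no other gene shows a separation of that size.

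Mlkl, the membrane executioner downstream of RIPK3, was highest in mean in the arrays labelled TRAF2/Casp8 KO. Its signals there were 7.52, 7.05, 7.34 and 7.58, against 7.08, 6.70, 6.84 and 7.24 in WT. They were 7.32, 7.31, 7.17 and 6.94 in RIPK3 triple KO and 7.04, 7.82, 7.35 and 7.17 in IKKβ triple KO. All 4 genotypes overlapped. The difference between TRAF2/Casp8 KO and WT was 0.41 (SE 0.17, 95% interval 0.04 to 0.77), with an unadjusted p of 0.0318 that did not survive adjustment over all probe sets (limma adjusted p = 0.294). The RIPK3 triple KO arrays, labelled as lacking the kinase that acts on MLKL, had an Mlkl mean of 7.19 ± 0.18 (SD, n = 4), between the 7.37 ± 0.24 of TRAF2/Casp8 KO and the 6.97 ± 0.24 of WT, and neither difference passed (adjusted p = 0.749 and 0.625).

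Zbp1 encodes a sensor of Z-form nucleic acids that engages RIPK3 directly, and is known as an interferon-induced gene. It read 8.00, 7.39, 7.14 and 7.86 in WT and 7.41, 7.08, 7.57 and 7.28 in TRAF2/Casp8 KO. In RIPK3 triple KO it read 7.62, 7.14, 7.41 and 6.95, and in IKKβ triple KO 7.52, 7.34, 7.72 and 7.81. The spread within WT was wide, with an SD of 0.40, and the SE of 0.19 of each difference was the largest among the 9 genes other than Ripk3. The largest difference, RIPK3 triple KO minus WT, was −0.32 with a 95% interval of −0.73 to 0.09 (limma adjusted p = 0.496).

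The 3 genes of the receptor-proximal platform, the adaptors Fadd and Tradd and the death receptor Fas, had 0 calls by limma in 18 tests. None of these had an unadjusted p under 0.05. Over all genes, 0.0372% to 3.31% were called in the 6 comparisons and 6.45% to 16.7% had an unadjusted p under 0.05. Fadd read 6.53, 6.68, 6.80 and 6.90 in WT, 6.74, 6.54, 6.78 and 6.84 in TRAF2/Casp8 KO, 6.77, 6.82, 6.72 and 6.87 in RIPK3 triple KO, and 6.63, 6.91, 6.72 and 6.57 in IKKβ triple KO. Its group means spanned only 0.09, and the interval of every difference stayed between −0.30 and 0.28. Tradd read 6.60, 6.37, 6.19 and 6.30 in WT, 6.44, 6.42, 6.38 and 6.60 in TRAF2/Casp8 KO, 6.13, 6.33, 6.35 and 6.39 in RIPK3 triple KO, and 6.42, 6.32, 6.43 and 6.34 in IKKβ triple KO. Its largest difference, RIPK3 triple KO minus TRAF2/Casp8 KO, was −0.16 (95% interval −0.36 to 0.03, limma adjusted p = 0.586).

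Fas, the receptor of Fas ligand, read 8.91, 8.80, 8.86 and 8.95 in WT and 8.66, 8.50, 8.65 and 8.72 in the arrays labelled TRAF2/Casp8 KO. It read 8.67, 8.86, 9.03 and 8.35 in RIPK3 triple KO and 9.01, 8.81, 8.76 and 8.70 in IKKβ triple KO. The TRAF2/Casp8 KO arrays all lay below the WT arrays, 1 of 10 genes without overlap in that comparison, where 11.6% of all genes had none. The difference was −0.25 (95% interval −0.51 to 0.01), and its limma adjusted p was 0.378. The RIPK3 triple KO arrays spanned both ranges, from 8.35 to 9.03.

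Cflar, the gene of c-FLIP, gave the smallest adjusted p among the 9 genes other than Ripk3, and it did not reach the threshold. Its signals were 8.33, 8.09, 8.11 and 8.07 in WT and 8.06, 8.17, 8.12 and 8.16 in IKKβ triple KO. They were 8.33, 8.28, 8.70 and 8.48 in TRAF2/Casp8 KO and 8.27, 8.62, 8.76 and 8.50 in RIPK3 triple KO. Both genotypes with the higher means were in plate column 7. The IKKβ triple KO arrays all lay below the TRAF2/Casp8 KO arrays (log2 −0.32, SE 0.11, limma adjusted p = 0.308) and below the RIPK3 triple KO arrays (log2 −0.40, SE 0.11, 95% interval −0.64 to −0.17, adjusted p = 0.0918). Cflar and Ripk3 were the 2 of 10 genes without overlap in the latter comparison, where 9.01% of all genes had none. WT replicate 1 stood above the 3 other WT arrays and overlapped with both column 7 genotypes. RIPK3 triple KO minus WT was 0.39 (SE 0.11, limma adjusted p = 0.0964), and TRAF2/Casp8 KO minus WT was 0.30 (SE 0.11, adjusted p = 0.219).

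The Cflar result sat near the threshold. Without RIPK3 triple KO replicate 1, Cflar passed against WT (log2 0.47, limma adjusted p = 0.0409) and in IKKβ triple KO minus RIPK3 triple KO (log2 −0.49, adjusted p = 0.0424). Centring each array on its median gave 0.42 (adjusted p = 0.045) and −0.43 (adjusted p = 0.0478) for the same comparisons. Over the 19 alternatives of the comparison with WT, 4 passed and the difference ranged from 0.31 to 0.52.

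The array carries 3 probe sets for Cflar, and they gave the same sign in 5 of 6 comparisons, all but IKKβ triple KO minus WT. In TRAF2/Casp8 KO minus WT, the differences were 0.30 on probe set 10497931, the one with the highest mean, 0.41 on 10346551 and 0.58 on 10346562 (limma adjusted p = 0.219, 0.135 and 0.153). In RIPK3 triple KO minus WT they were 0.39, 0.48 and 0.70 (adjusted p = 0.0964, 0.0733 and 0.0744). In IKKβ triple KO minus TRAF2/Casp8 KO they were −0.32, −0.39 and −0.42 (adjusted p = 0.308, 0.291 and 0.521). By limma 0 of the 18 tests on the 3 probe sets passed, and 12 had an unadjusted p under 0.05. Over all genes, 6.45% to 16.7% did in the 6 comparisons. The 3 probe sets read 1 gene on the same arrays and the comparisons share groups, so these tests are not independent. On every probe set WT replicate 1 was the highest WT array; on 10346562 it read 7.86, against 6.89 to 7.08 in the other WT arrays. In RefSeq's gene order the next protein-coding gene after Cflar is Casp8, which is deleted in parenchymal cells of all 3 knockout genotypes. Whether this position bears on the Cflar signal was not tested.

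**Figure D3:**
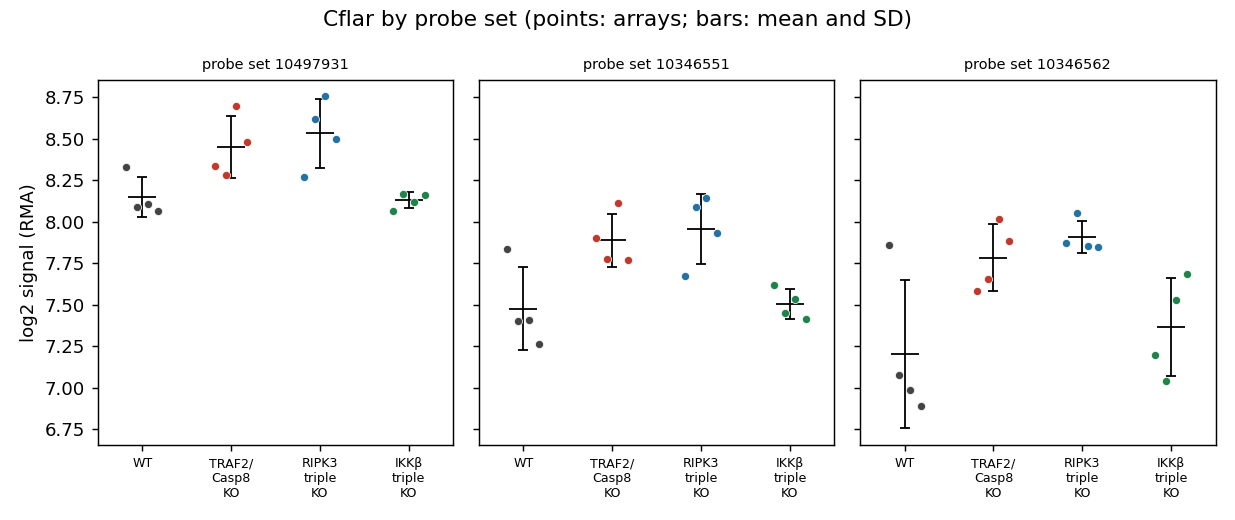
Log2 signal of the 3 Cflar probe sets by genotype, with 1 point per array, a bar at the mean and whiskers of 1 SD (n = 4). On each probe set the TRAF2/Casp8 KO and RIPK3 triple KO means lie above the WT and IKKβ triple KO means, and WT replicate 1 is the highest WT point.

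Cyld, a deubiquitinase that edits RIPK1 in the receptor complex, read 7.37, 7.19, 7.13 and 7.05 in WT and 7.67, 7.32, 7.35 and 7.46 in TRAF2/Casp8 KO. It read 7.17, 7.44, 7.55 and 7.32 in RIPK3 triple KO and 7.28, 7.30, 7.17 and 7.23 in IKKβ triple KO. The IKKβ triple KO arrays all lay below the TRAF2/Casp8 KO arrays. Cyld and Cflar were the 2 of 10 genes without overlap there, where 7.48% of all genes had none. For Cyld that difference was −0.20 (95% interval −0.42 to 0.01, limma adjusted p = 0.582), and TRAF2/Casp8 KO minus WT was 0.27 (interval 0.05 to 0.48, adjusted p = 0.23).

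Xiap, an X-linked inhibitor of caspases, read 8.89, 8.73, 8.69 and 8.74 in WT and 8.95, 8.81, 9.16 and 9.0 in TRAF2/Casp8 KO. It read 8.79, 9.16, 9.01 and 8.84 in RIPK3 triple KO and 8.64, 8.65, 8.86 and 8.99 in IKKβ triple KO. All pairs of genotypes overlapped. TRAF2/Casp8 KO minus WT was 0.22, with a 95% interval of −0.01 to 0.45 (limma adjusted p = 0.382).

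Gsdmd, the pore-forming gasdermin cut by inflammatory caspases and by caspase-8, read 7.78, 7.35, 7.36 and 7.55 in WT and 7.80, 7.71, 7.86 and 8.07 in TRAF2/Casp8 KO. It read 7.60, 7.79, 7.81 and 7.76 in RIPK3 triple KO and 7.60, 7.71, 7.73 and 7.60 in IKKβ triple KO. WT replicate 1 alone overlapped with the TRAF2/Casp8 KO arrays. The difference between TRAF2/Casp8 KO and WT was 0.35 (SE 0.10, 95% interval 0.13 to 0.57), a 1.28-fold higher mean that did not pass (limma adjusted p = 0.101). Without WT replicate 1 it was 0.44 and passed (limma adjusted p = 0.0249). It also passed when arrays were weighted by their quality (0.41, adjusted p = 0.0179). WT replicate 1 had the lowest weight of all arrays, 0.461, so both alternatives discount the same array. Over the 19 alternatives of this comparison, 2 passed and the difference ranged from 0.28 to 0.44. RIPK3 triple KO minus WT was 0.23 (adjusted p = 0.321) and IKKβ triple KO minus WT was 0.15 (adjusted p = 0.874).

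Over the 54 tests of the 9 genes other than Ripk3, limma called 0, and 9 had an unadjusted p under 0.05, where 6.45% to 16.7% of all genes did in the 6 comparisons. The 95% intervals of these differences lay between −0.73 and 0.77, so a change of 2-fold (a log2 of 1) lay outside every one of them. In TRAF2/Casp8 KO minus WT, the median difference over the 10 genes was 0.16 against −0.01 over all genes, and Mlkl, Cflar, Cyld and Gsdmd were those with an unadjusted p under 0.05. RIPK3 triple KO minus TRAF2/Casp8 KO had a median of −0.07 (all genes −0.0018); 1 of 10, Ripk3, had an unadjusted p under 0.05 (background 11.1%) and 1 of 10 no overlap (background 6.87%). In IKKβ triple KO minus TRAF2/Casp8 KO the median was −0.05 (all genes −0.00027).

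RIPK3 triple KO minus WT had a median of 0.13 (all genes −0.0086), with 3 of 10 at an unadjusted p under 0.05 (background 15.6%) and 1 of 10 without overlap (background 9.08%). The 3 were Ripk3, Cflar and Gsdmd. IKKβ triple KO minus WT had a median of 0.02 (all genes −0.01), and 0 of 10 genes were without overlap (background 3.92%). Mlkl, at 0.38, was the gene with an unadjusted p under 0.05 there (limma adjusted p = 0.79). IKKβ triple KO minus RIPK3 triple KO had a median of −0.00045 (all genes −0.0082), and Ripk3 and Cflar were the 2 of 10 with an unadjusted p under 0.05 (background 16.7%). These comparisons share control arrays, so their values are given side by side only. In TRAF2/Casp8 KO minus WT, 3 of 5 biliary epithelium markers were higher (median 0.79, all genes passing 3.31%). There 1 of 8 hepatocyte markers was lower (median −0.12). The biliary list also had 2 of 5 higher in RIPK3 triple KO minus WT (median 0.59, all genes 3.11%). It had 2 of 5 lower in IKKβ triple KO minus TRAF2/Casp8 KO (median −0.58, all genes 1.02%). In IKKβ triple KO minus RIPK3 triple KO 1 of 5 was lower (median −0.47, all genes 2.00%). The part of these cells in the values of the 10 genes, and of Birc2 and Birc3 below, was not tested.

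Around the 10 genes, 5 lists of death-pathway genes were counted, and more of their calls fell in the TNF receptor complex than in any of the others. That list was also the largest, with 18 measured genes against 6 to 13, and it holds the targeted genes Traf2 and Ikbkb. The caspase list holds the targeted Casp8. All lists were chosen with earlier results of these data known, so the counts are descriptions only. Of 9 death ligands and receptors, limma called 0 in TRAF2/Casp8 KO against WT, with 3 at an unadjusted p under 0.05 (all genes 16.4%). The smallest adjusted p there, 0.089, was for Tnfrsf12a, the receptor of TWEAK (log2 1.11). Tnfrsf10b, the murine TRAIL receptor, was the 1 call in the list, in RIPK3 triple KO minus WT (all genes 3.11%). It read 4.76, 5.42, 5.36 and 5.20 in WT and 6.18, 6.10, 5.83 and 6.06 in RIPK3 triple KO, without overlap (log2 0.86, SE 0.18, adjusted p = 0.0196). Without WT replicate 4, or without replicate 1 or 2 of RIPK3 triple KO, it no longer passed (adjusted p up to 0.0583).

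In the TNF receptor complex and its ubiquitin enzymes, 5 of 18 measured genes rose in TRAF2/Casp8 KO against WT and 0 fell, where 3.31% of all genes passed in either direction. They were Traf2 itself (log2 1.02, limma adjusted p = 2.14e-05), the ubiquitin ligases Birc2 (1.12, 0.000108) and Birc3 (1.69, 0.000427), which encode cIAP1 and cIAP2, the ubiquitin-editing enzyme Tnfaip3 or A20 (1.76, 0.000365) and its partner Tnip1 (1.15, 0.00455). Birc2 read 6.99, 6.73, 6.57 and 6.54 in WT and 7.84, 7.66, 7.92 and 7.88 in TRAF2/Casp8 KO. Tnfaip3 read 5.93, 5.20, 4.95 and 4.96 in WT and 7.33, 7.00, 6.58 and 7.16 in TRAF2/Casp8 KO. WT replicate 1 was the highest WT array for both, and the genotypes still did not overlap. None of the 10 genes passed in the same comparison.

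All 5 also passed in RIPK3 triple KO minus WT, 5 of 18 where 3.11% of all genes passed. Tnfaip3 was 2.00 higher there (adjusted p = 0.000109) and Birc2 1.06 higher (adjusted p = 0.000168). Tnip1 there was 0.92 higher (adjusted p = 0.0223), a call lost without WT replicate 2, 3 or 4 or RIPK3 triple KO replicate 3 or 4 (adjusted p up to 0.0781). RIPK3 triple KO against TRAF2/Casp8 KO gave 0 of 18 by limma (all genes 0.329%), with 0 at an unadjusted p under 0.05 (all genes 11.1%). In IKKβ triple KO against TRAF2/Casp8 KO, 3 of 18 fell (all genes 1.02%). Ikbkb fell by 0.69 (adjusted p = 0.00137), Birc2 fell by 0.91 (adjusted p = 0.00145) and Birc3 fell by 1.14 (adjusted p = 0.0186). The Birc3 call was lost without TRAF2/Casp8 KO replicate 1 or 4 or IKKβ triple KO replicate 3 or 4 (adjusted p up to 0.0809). Ikbkb, Birc2, Birc3 and Traf2 fell in IKKβ triple KO minus RIPK3 triple KO, 4 of 18 where 2.00% of all genes passed. Traf2 fell by 0.43 (adjusted p = 0.0292). That call was lost without replicate 2 or 3 of RIPK3 triple KO or replicate 2, 3 or 4 of IKKβ triple KO (up to 0.0942). Traf2 was the 1 call of 18 in IKKβ triple KO minus WT (0.61, adjusted p = 0.0426), where 0.0372% of all genes passed. It was lost without any 1 of the 8 arrays (up to 0.168).

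The 3 remaining lists had few calls, and their counts at an unadjusted p under 0.05 stand beside 6.45% to 16.7% of all genes in the 6 comparisons. Of 6 measured caspase-list genes, Casp8 fell against WT in each knockout genotype: by 0.91 in TRAF2/Casp8 KO (limma adjusted p = 0.000323), by 1.18 in RIPK3 triple KO (2.69e-05) and by 0.99 in IKKβ triple KO (0.00289). The last call was lost when only the 2 genotypes were fitted (adjusted p = 0.218). Against WT, 4 of 6 had an unadjusted p under 0.05 in TRAF2/Casp8 KO (all genes 16.4%). The counts were 3 of 6 in RIPK3 triple KO (all genes 15.6%) and 2 of 6 in IKKβ triple KO (all genes 6.45%). Besides Casp8, the genes in TRAF2/Casp8 KO were Casp6 (−0.35), Casp9 (−0.40) and Apaf1 (0.39). Their limma adjusted p were 0.174, 0.119 and 0.299. Between knockout genotypes limma called 0 of 6 in each comparison, with 0 to 2 at an unadjusted p under 0.05. Of 13 necrosome partners and regulators, limma called 0 in each of the 6 comparisons, with 1 or 2 at an unadjusted p under 0.05 in each. The smallest adjusted p was 0.0604, for the kinase Aurka in IKKβ triple KO minus RIPK3 triple KO (log2 0.72), and in TRAF2/Casp8 KO minus WT it was 0.137, for the inositol phosphate kinase Itpk1 (log2 −0.25). Of 12 pyroptosis genes, limma called 0 in each comparison, with 1 to 4 at an unadjusted p under 0.05. The DNA sensor Aim2 came nearest, at −0.42 in RIPK3 triple KO minus TRAF2/Casp8 KO (adjusted p = 0.101) and 0.38 in IKKβ triple KO minus RIPK3 triple KO (adjusted p = 0.0608). The gasdermin Gsdme was 0.49 higher in mean in TRAF2/Casp8 KO than in WT (adjusted p = 0.0971). Ripk1, like some other list genes without a probe set of 1 symbol, was not analysed here.

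**Figure D4:**
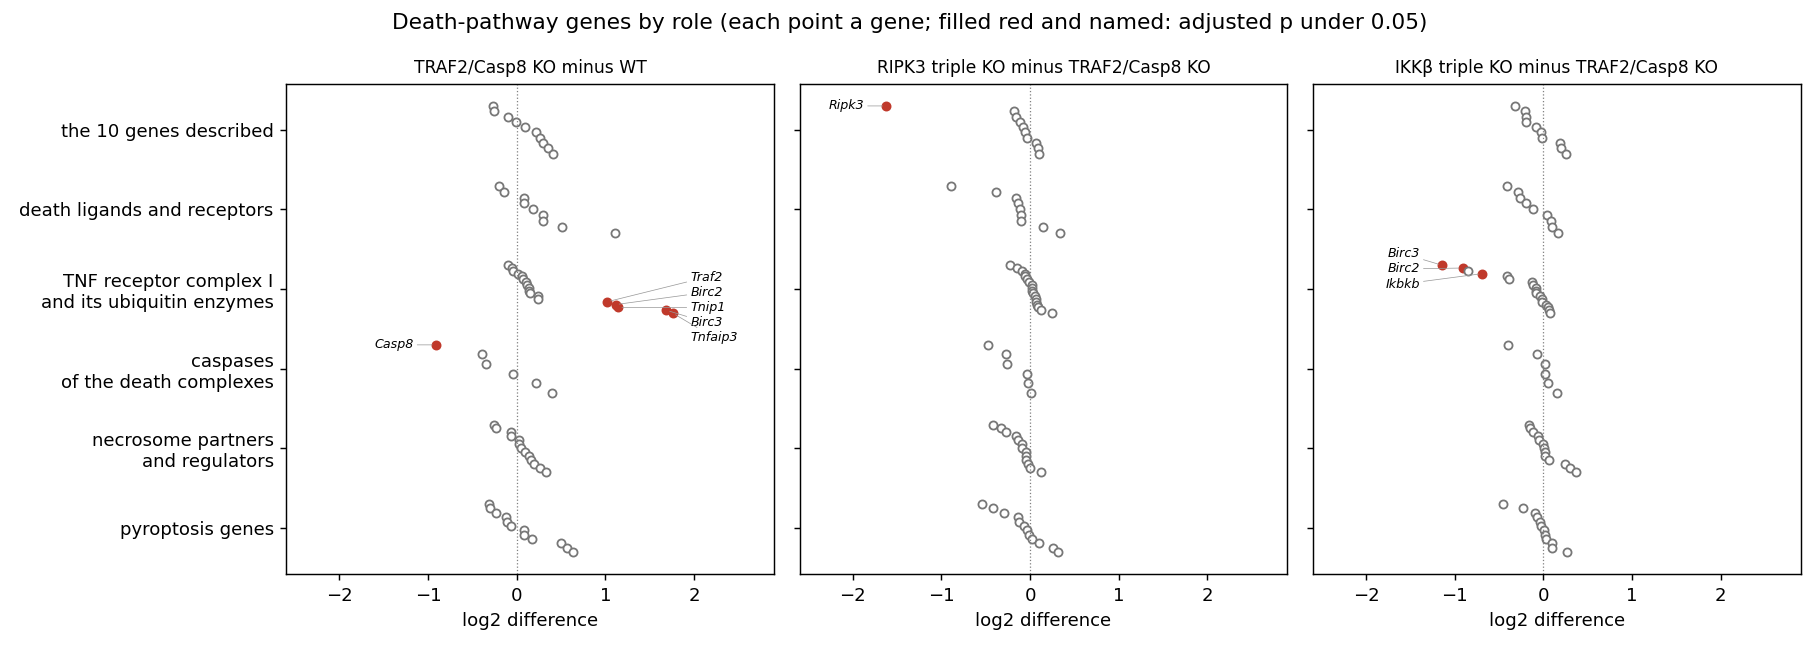
Log2 differences of death-pathway genes by role (rows) in the 3 comparisons that involve TRAF2/Casp8 KO (panels), with 1 point per gene; red named points passed a limma adjusted p of 0.05. In the left panel the named genes of the TNF receptor complex lie between 1.02 and 1.76, while the 10 genes described lie between −0.26 and 0.41.

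Promoter windows from RefSeq (GRCm38.p6), 250 bases before to 50 after the start, were matched for 7 of the 10 genes, in 9 windows. The NF-κB consensus, searched on both strands, was found in 1 of these 9 windows, that of Cyld, and in 4.51% of all 32851 windows of 300 bases. The interferon-response pair GAAANNGAAA, also on both strands, was found in 1 of the 9 windows and in 3.44% of all windows. That window is of Cflar, and the pair begins at base 7 after the start. The windows of 4 list genes that rose were searched too: 1 of 2 windows of Tnfaip3 and the window of Tnip1 hold NF-κB matches, and those of Birc2 and Birc3 hold none. The 250 bases before the start are shown for Cyld, which did not pass in any comparison, beside Tnfaip3 and Tnip1, which passed against WT, so that genes with and without a call can be read side by side. Capitals mark the NF-κB matches, overlapping ones joined. The stretches are chr8:88696778-88697027 on the plus strand for Cyld, chr10:19015411-19015660 on the minus strand for Tnfaip3 and chr11:54962941-54963190 on the minus strand for Tnip1.
Cyld: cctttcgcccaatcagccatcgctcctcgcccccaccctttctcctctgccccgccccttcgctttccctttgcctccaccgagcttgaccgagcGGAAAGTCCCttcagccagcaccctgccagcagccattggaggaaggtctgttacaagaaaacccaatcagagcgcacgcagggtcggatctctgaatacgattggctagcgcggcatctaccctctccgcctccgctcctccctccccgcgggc
Tnfaip3: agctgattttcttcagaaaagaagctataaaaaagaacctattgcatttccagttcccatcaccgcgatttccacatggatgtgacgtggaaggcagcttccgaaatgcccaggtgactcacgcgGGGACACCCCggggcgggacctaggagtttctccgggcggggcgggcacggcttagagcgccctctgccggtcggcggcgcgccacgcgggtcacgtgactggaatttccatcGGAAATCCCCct
Tnip1: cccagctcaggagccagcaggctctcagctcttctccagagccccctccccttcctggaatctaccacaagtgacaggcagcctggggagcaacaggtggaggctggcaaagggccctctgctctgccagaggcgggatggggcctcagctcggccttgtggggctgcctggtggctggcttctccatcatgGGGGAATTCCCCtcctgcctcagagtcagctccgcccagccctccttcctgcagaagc
In TRAF2/Casp8 KO minus WT these genes differed by 0.27 (Cyld), 1.76 (Tnfaip3) and 1.15 (Tnip1), each on its own probe set. A match describes letters in the window and shows no binding.

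The genes most like each of the 10 over the 16 arrays were found by Pearson's r among 17638 named genes. Each r is the highest of that many, over arrays that share 4 genotypes, and is a description only. For Ripk3 they were Krt20 (0.892), Samd9l (0.891) and Rpa3 (0.888). For Zbp1 they were Gbp7 (0.86), Ifi203 (0.83) and Irf9 (0.827), which are known as interferon-induced genes or, in the case of Irf9, as part of the interferon-activated factor. For Cflar the nearest was C4bp (0.946), for Xiap Vps13c (0.93), for Cyld Akap13 (0.923) and for Gsdmd Strada (0.918). For Mlkl it was Larp7 (0.898), for Fadd Btbd1 (0.891), for Tradd Capg (0.891) and for Fas Rab17 (0.872). Tradd's next nearest, Pik3cg (0.858) and Mpeg1 (0.857), are known as genes of leukocytes and macrophages. Within the 10 genes, Cflar and Xiap had the highest r, 0.804, and Ripk3 and Mlkl, which act one after the other, had 0.251.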

How the data were processed

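Whole-liver RNA of 16 mice (4 per genotype) was measured on one-colour arrays. The deposited values are log2 signals that the authors made with RMA, per the submitters' processing notes; its version is not given. Values ran from 0.89 to 13.65, which shows the log base, and array medians from 4.90 to 5.05; 0 per-sample columns were unused. The number of arrays limits the precision. Genes were named by the platform annotation, in which 21218 probe sets carry 1 symbol, 1881 several and 12457 none.

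Genotypes were taken from the labels. R 4.3.3 with limma 3.58.1 (lmFit and eBayes, two-sided) fitted 1 model to the 16 arrays, with Benjamini-Hochberg correction for 35556 probe sets. Data were simulated for TRAF2/Casp8 KO minus WT over 35556 probe sets, with independent noise and 50 probe sets changed at each size. Log2 changes of 0.3, 0.5, 1 and 2 were recovered in 2%, 38%, 78% and 96% of cases, and 6.14% of calls were false. The share changed was smaller than the 3.31% of all genes called in the data, so these rates may differ from those in the data. The 10 genes and all lists were chosen with earlier results of these data known. Named besides them were the targeted genes, the 3 passing genes with the smallest adjusted p per list and comparison (or the nearest 1 where none passed) and the genes most alike over the arrays; any others were chosen after their values were seen. Alternatives were an intensity trend, a fit of only the 2 genotypes compared, a filter without the dimmest of 3 parts, quantile normalisation, median centring, 1 or all probe sets per gene, array weights, a block for the replicate number, another (random) for the plate row, a fold of at least 1.2, and leaving out each array. Plots used matplotlib 3.10.9 and Python 3.11.15.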

Additional observations from a re-analysis of the deposited data

Results flagged for a closer look

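Cflar in WT replicate 1, at 8.33 on the log2 scale, stood apart from the 3 other WT arrays: its gap to the nearest of them was 0.841 of the range of the group. It was the 1 array apart among 40 groups of 4 checked over the 10 genes, and chance sets about 1 in 20 groups apart. In the same array the mean of the 10 neutrophil and myeloid precursor markers was 9.82, with all 10 at their highest of the 16 arrays. The same held for 4 of 4 B cell, 3 of 4 monocyte and 4 of 8 Kupffer cell and macrophage markers. It held for 2 of 6 endothelial and 1 of 8 T and NK cell markers, and for 0 of the hepatocyte, biliary, erythroid and stellate markers. The share of all genes at their highest of the 16 arrays in WT replicate 1 was not computed, so these counts have no background. Among the 4 WT arrays alone, 31% of all genes were highest in it. The part of the cells that these markers stand for in the Cflar value was not tested.

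Ripk3 differed between the IKKβ triple KO and RIPK3 triple KO arrays by 1.82 on the log2 scale (limma adjusted p = 7.49e-05), which is also the difference between their changes from TRAF2/Casp8 KO, 0.19 and −1.62. All 4 IKKβ triple KO arrays lay above all 4 RIPK3 triple KO arrays, and the labels give Ripk3 as deleted in the latter.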

How the results depend on the processing

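The 3 Ripk3 calls passed under all 19 alternatives of each comparison, at −1.70 to −1.50 against TRAF2/Casp8 KO, −1.82 to −1.56 against WT and 1.69 to 1.90 between the triple knockouts, with adjusted p up to 0.00463. Counts of the 10 genes called changed in 3 comparisons. TRAF2/Casp8 KO minus WT went from 0 to 1 (Gsdmd) with array weights, and ranged from 0 to 1 over arrays left out. RIPK3 triple KO minus WT went from 1 to 2 (Cflar as well) with median centring, the mean of all probe sets of a gene (log2 0.52, adjusted p = 0.0477) or array weights (0.46, adjusted p = 0.0267), and ranged from 1 to 2 over arrays left out. IKKβ triple KO minus RIPK3 triple KO went from 1 to 2 (Cflar as well) with median centring or array weights (−0.44, adjusted p = 0.0397), and ranged from 1 to 2 over arrays left out. The cause was not tested.

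Signs changed in 45 of 1140 recomputed values, in none of those called, and the largest reported size among them was 0.097. With quantile normalisation, Tradd in IKKβ triple KO minus WT was −0.00327. With median centring, Xiap in RIPK3 triple KO minus TRAF2/Casp8 KO was 0.022, Fadd in IKKβ triple KO minus TRAF2/Casp8 KO 0.00771 and Zbp1 in IKKβ triple KO minus WT 0.00043. With all probe sets averaged, Cflar in IKKβ triple KO minus WT was 0.056. With array weights, Ripk3 in TRAF2/Casp8 KO minus WT was 0.011, and in IKKβ triple KO minus WT Zbp1 was 0.12 and Cflar 0.020. Over arrays left out, the ranges in TRAF2/Casp8 KO minus WT were −0.22 to 0.0598 for Ripk3 and −0.071 to 0.057 for Fadd. In RIPK3 triple KO minus WT they were −0.000578 to 0.12 for Fadd and −0.12 to 0.012 for Tradd. Those in IKKβ triple KO minus WT were −0.033 to 0.25 for Ripk3, −0.16 to 0.13 for Zbp1, −0.046 to 0.041 for Cflar, −0.091 to 0.033 for Fadd, −0.045 to 0.092 for Tradd and −0.044 to 0.075 for Xiap. In RIPK3 triple KO minus TRAF2/Casp8 KO they were −0.10 to 0.026 for Xiap, −0.00357 to 0.22 for Fas and −0.17 to 0.051 for Zbp1. Those in IKKβ triple KO minus TRAF2/Casp8 KO were −0.18 to 0.075 for Mlkl and −0.086 to 0.028 for Fadd, and in IKKβ triple KO minus RIPK3 triple KO −0.035 to 0.19 for Fas.

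Same-numbered arrays of different genotypes did not deviate together (r −0.102 to 0.159 over 24 pairs), so the numbers mark no pairing. A replicate block left the counts at 0 in TRAF2/Casp8 KO minus WT and 1 in each of the 3 comparisons that involve RIPK3 triple KO. Of the list genes, Traf2 in IKKβ triple KO minus WT was not called with the block (adjusted p = 0.0892). A minimum fold of 1.2 ended 7 list-gene calls, and a fit of only the 2 genotypes compared ended 5.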
